A study of Mus musculus with 14 samples.

Results

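The genes described here are 10 components of the cytotoxic granule: *Prf1*, *Srgn*, *Ctsc*, *Ctsw*, *Nkg7*, *Lamp1*, *Serpinb9*, *Rab27a*, *Unc13d*, and *Stx11*. They were taken by name from a fixed list and not by their values, and all 10 had a value in all 14 samples. They stand among 15137 genes tested in the first experiment and 14026 in the second. CD4+ T cells of C57BL/6 mice were activated under Th0 conditions, that is with anti-CD3 and anti-CD28 and without polarizing cytokines, and viable cells were sorted for RNA-Seq. The first experiment started from naive cells cultured with IL-2 and compared 4 WT samples with 4 HDAC1cKO-HDAC2HET samples (HDAC1f/f HDAC2f/+ x CD4cre) after 3 days, with no restimulation. The second compared 3 WT samples with 3 HDAC1cKO samples (HDAC1f/f x CD4cre, both *Hdac2* alleles intact) after 3 days and a further 12 hours of anti-CD3. Cre was driven by *Cd4* regulatory sequences, which act from the thymus onward, so the floxed alleles (both of *Hdac1* and, in HDAC1cKO-HDAC2HET mice, 1 of *Hdac2*) were deleted in CD4+ and CD8+ T cells before the culture. The labels give no age and do not say whether a sample was pooled from several mice.

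Cytotoxic lymphocytes kill by releasing the content of modified lysosomes at the contact with a target cell. Perforin opens the target membrane for granzymes, serglycin holds both in the dense granule core, and cathepsin C removes the propeptide of granzymes. RAB27A and MUNC13-4 tether and prime the granule, and syntaxin-11 takes part in its fusion with the plasma membrane, while SERPINB9 inhibits granzyme B that leaks into the killer cell. These parts are best known from CD8+ T cells and NK cells, and the subset of CD4+ T cells called CD4+ CTLs also carries them. Transcripts of the 10 genes were found in the WT CD4+ T cells here as well, with *Prf1* lowest by its mean.

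The bases before the start sites of 4 of the genes are shown because 3 of them, *Prf1*, *Nkg7*, and *Serpinb9*, were higher in HDAC1cKO-HDAC2HET cells, and *Srgn* was lower. They were read from RefSeq (build GRCm38.p6), whose table held 8 of the 10 genes. Each run begins 250 bases before the RefSeq start and ends before that start or before the first annotated exon of the gene, whichever comes first. *Prf1* is read from chr10:61297586-61297832 on the plus strand, *Nkg7* from chr7:43436888-43437072 on the plus strand, *Serpinb9* from chr13:33004291-33004540 on the plus strand, and *Srgn* from chr10:62527452-62527695 on the minus strand. The *Serpinb9* run lies in the first intron of a longer annotated transcript. Capitals mark matches to the searched motifs on either strand, namely RUNX (TGTGGT), T-box (GGTGTGA), GAS (TTCNNNGAA), AP-1 (TGANTCA), and GC box (GGGCGG).
Prf1: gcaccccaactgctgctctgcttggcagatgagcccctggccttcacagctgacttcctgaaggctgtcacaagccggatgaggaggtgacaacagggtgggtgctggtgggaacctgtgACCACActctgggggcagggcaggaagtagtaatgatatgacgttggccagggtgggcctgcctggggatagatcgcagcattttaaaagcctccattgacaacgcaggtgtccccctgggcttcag
Nkg7: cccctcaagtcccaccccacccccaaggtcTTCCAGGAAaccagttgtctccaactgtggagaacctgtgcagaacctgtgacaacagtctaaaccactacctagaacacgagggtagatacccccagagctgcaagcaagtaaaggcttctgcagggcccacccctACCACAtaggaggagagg
Serpinb9: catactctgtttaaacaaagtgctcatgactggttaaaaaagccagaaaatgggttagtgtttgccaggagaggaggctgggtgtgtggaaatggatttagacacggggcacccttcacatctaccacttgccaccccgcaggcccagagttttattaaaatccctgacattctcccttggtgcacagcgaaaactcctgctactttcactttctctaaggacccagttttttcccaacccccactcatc
Srgn: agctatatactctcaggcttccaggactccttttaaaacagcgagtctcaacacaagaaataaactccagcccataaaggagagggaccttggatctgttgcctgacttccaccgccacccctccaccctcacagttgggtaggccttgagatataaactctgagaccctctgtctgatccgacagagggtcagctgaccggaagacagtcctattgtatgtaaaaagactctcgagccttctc
A RUNX match stood 130 to 125 bases before the RefSeq start of *Prf1* and 83 to 78 bases before that of *Nkg7*. The same windows held one in 13.9% and 10.7% of 32851 promoters. A GAS match stood 220 to 212 bases before the RefSeq start of *Nkg7*, and 5.38% of promoters held one in that window. The RefSeq start of *Nkg7* lies 65 bases past the beginning of its first annotated exon. No searched motif was found in the *Serpinb9* and *Srgn* windows. Such matches are letters only, and no binding was measured.

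Depth was not given with the files, and the confidence bounds of low values implied roughly 25500000 to 60100000 fragments per library. *Hdac1* checked the labels, at 76.3 to 79.6 FPKM in WT and 6.65 to 10.7 FPKM in HDAC1cKO-HDAC2HET samples, and at 72.3 to 81.1 FPKM in WT and 8.52 to 12.1 FPKM in HDAC1cKO samples. *Hdac2* was 58.2 to 60.3 FPKM in WT and 34.0 to 37.0 FPKM in HDAC1cKO-HDAC2HET samples. WT replicate 3 of the second experiment stood apart, because it held both *Xist* (33.2 FPKM) and Y-linked transcripts (summed 9.21 FPKM), of which each of the other 13 libraries held only the one kind in quantity. The 3 HDAC1cKO libraries and WT replicate 2 were male by these transcripts, and WT replicate 1 and all libraries of the first experiment were female. In the second experiment sex thus went largely with genotype, and the 2 cannot be fully told apart in its fold changes. Results of the second experiment that rest on WT replicate 3 are given with and without it. The 6 genes examined as CD4+ T cell markers (*Cd3d*, *Cd3e*, *Cd3g*, *Cd4*, *Cd5*, and *Thy1*) were present in each group (summed 1108 to 1393 FPKM). Of these only *Cd4* separates CD4+ from CD8+ T cells. Mean *Cd4* was 213 FPKM in WT and 164 FPKM in HDAC1cKO-HDAC2HET samples, and 210 and 216 FPKM in WT and HDAC1cKO samples. The NK cell markers summed to at most 0.354 FPKM, with *Klra8* at 0 in every library. The 2 CD8 T cell markers summed to 3.28 to 5.96 FPKM in WT and 11.7 to 15.2 FPKM in HDAC1cKO-HDAC2HET samples, almost all of it *Cd8b1*, and to 3.80 to 4.86 FPKM and 6.52 to 7.30 FPKM in WT and HDAC1cKO samples. The 5 B cell markers summed to 0.502 to 0.945 FPKM in WT and 2.79 to 4.40 FPKM in HDAC1cKO-HDAC2HET samples, most of it *Cd79b*, and to at most 1.04 FPKM in the second experiment. The 6 myeloid markers summed to 5.40 to 11.4 FPKM in WT, 9.00 to 12.8 FPKM in HDAC1cKO-HDAC2HET, 5.58 to 11.6 FPKM in restimulated WT, and 16.9 to 20.7 FPKM in HDAC1cKO samples. Almost all of it was *Mpeg1* and *Cd68*, with *Csf1r* at 0 in every library. In restimulated WT and HDAC1cKO samples mean *Mpeg1* was 3.80 and 13.9 FPKM, and mean *Cd68* was 5.05 and 4.52 FPKM. The 4 mast cell markers summed to at most 1.78 FPKM. The study's methods describe depletion of cells bearing CD8α, B220, NK1.1, CD11b, CD11c, or Gr1 and a sort for naive CD4+ T cells ahead of Th0 cultures. The part of remaining cells of these types in the results below was not tested, and in bulk RNA more cells with a transcript cannot be told apart from more transcript per cell.

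After 3 days of activation, 4 of the 10 genes were higher in HDAC1cKO-HDAC2HET than in WT cells at an adjusted p of at most 0.05 (limma), against 24.2% of all genes tested. All 4 were higher by at least 2-fold, against 5.59% of all genes. These were *Prf1*, *Nkg7*, *Ctsw*, and *Serpinb9*, and for *Nkg7* the way of listing went with genotype, as given below. Lower were 2 of the 10, *Srgn* and *Unc13d*, against 27.6% of all genes, and 0 of the 10 were lower by at least 2-fold, against 5.58%. The median log2 fold change of the 10 genes was 0.04, and that of all genes tested was -0.05.

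**Figure D1:**
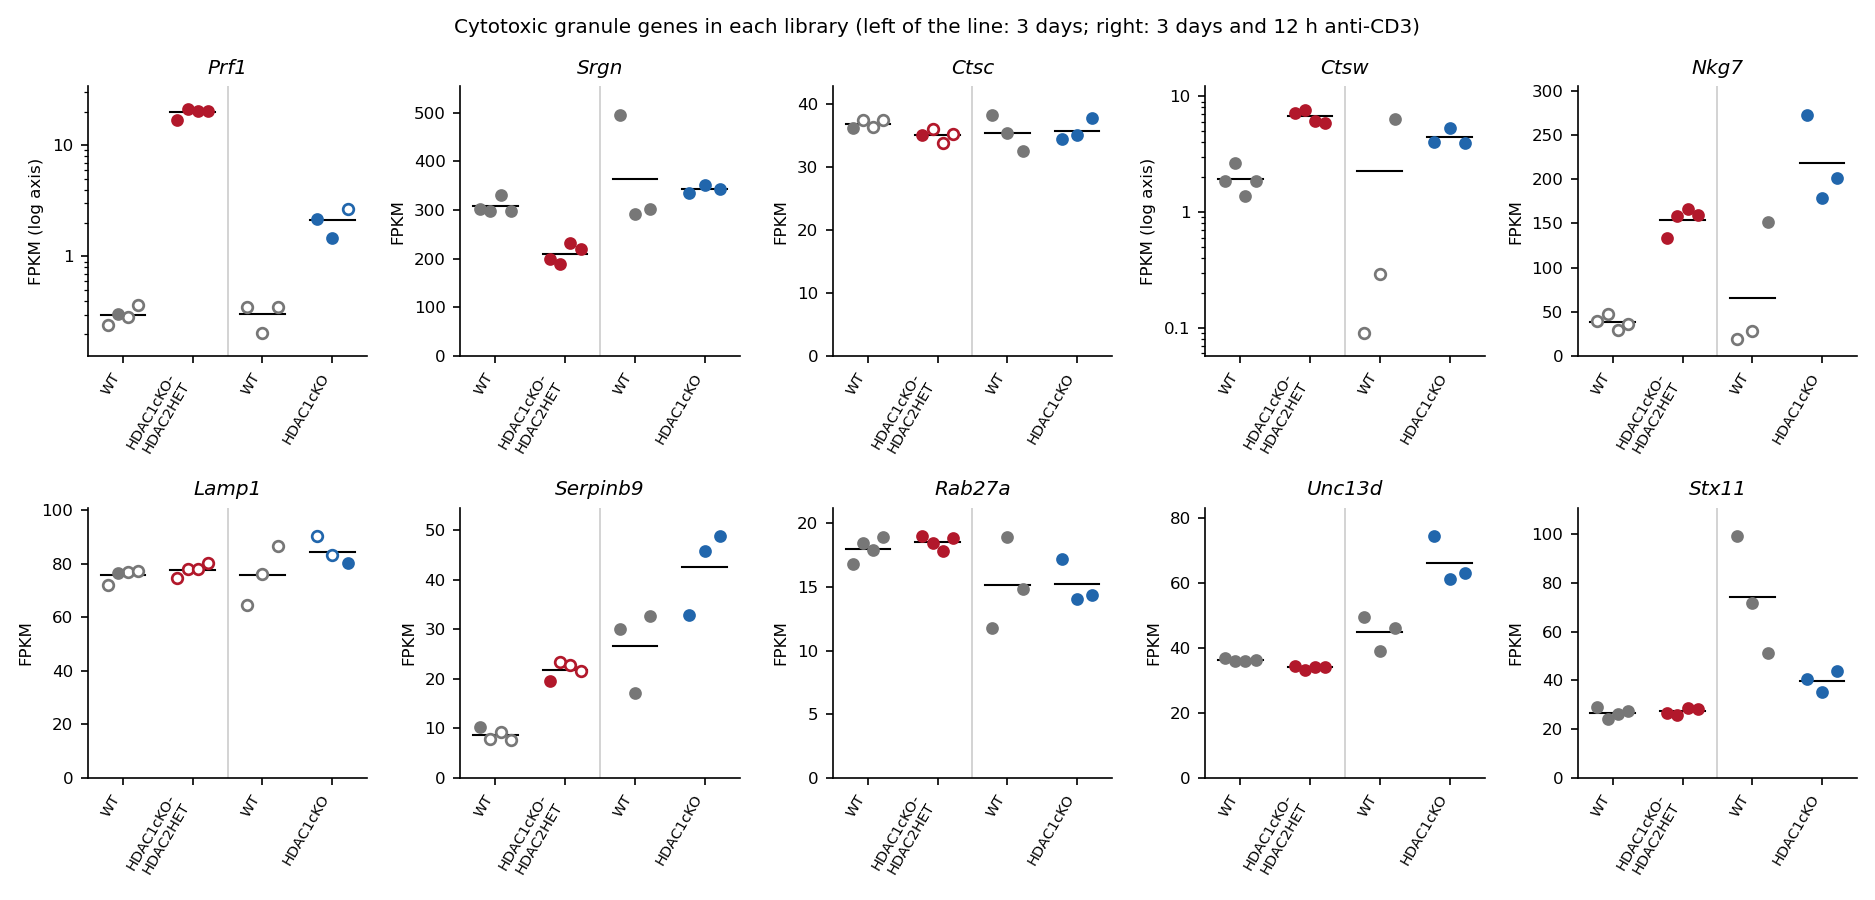
FPKM of the 10 genes in each library, on a log axis for Prf1 and Ctsw and a linear axis from 0 for the others. Each point is a library, open where the gene was listed by name and filled where an unnamed locus was matched by position, and lines are group means. Prf1 lay at 0.240 to 0.367 in WT and 16.9 to 21.4 in HDAC1cKO-HDAC2HET libraries, and Nkg7 and Ctsw of WT replicate 3 of the second experiment lay far above the other WT libraries there.

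Perforin, the pore-forming protein, showed the largest change of the 10. Its gene lies at chr10:61297833-61304680 (mm10, plus strand). *Prf1* was 0.240, 0.301, 0.287, and 0.367 FPKM in the WT samples and 16.9, 21.4, 20.4, and 20.4 FPKM in the HDAC1cKO-HDAC2HET samples. Its level thus moved from the 16.0th to the 71.7th percentile of genes tested, and no mutant library came near the WT range. The log2 fold change was 5.64 ± 0.12 (SE, n = 4 per group, adjusted p = 1.66e-07 by limma) on the scale of FPKM plus 0.1. The ratio of mean FPKM was 66.2, above the 95% interval of the fold on that scale (41.4 to 60.3), since the added 0.1 is large against the WT values. With a pseudocount of 1 the log2 fold change was 3.99, and with 0.01 it was 6.01. The WT values rested on 20 to 32 fragments per library, as the confidence bounds imply. The gene was listed by name in 3 WT libraries and matched by position in the fourth and in all 4 mutant libraries, and the matched WT value lay within the range of the listed ones.

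Serglycin, the proteoglycan that packs perforin and granzymes, moved the other way. Its gene lies at chr10:62493833-62527451 on the minus strand. *Srgn* was 303, 298, 331, and 299 FPKM in WT and 199, 189.8, 232, and 219.5 FPKM in HDAC1cKO-HDAC2HET samples. It remained the most abundant of the 10 in every group, and the 2 groups did not overlap. The log2 fold change was -0.55 ± 0.07 (SE, n = 4 per group, adjusted p = 0.000322 by limma). Within a library, *Srgn* exceeded *Prf1* by 815 to 1261 times in WT and by 8.88 to 11.8 times in HDAC1cKO-HDAC2HET samples.

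The 2 cathepsins of the list differed from each other. Cathepsin C, which activates granzymes, was nearly flat: *Ctsc* was 36.2, 37.5, 36.3, and 37.4 FPKM in WT and 35.0, 36.0, 33.8, and 35.2 FPKM in HDAC1cKO-HDAC2HET samples. The mutant values lay just under the WT values, and the fold, 0.950 with a 95% interval of 0.908 to 0.994, did not pass the adjusted test (adjusted p = 0.0604, limma). Cathepsin W, a protease of cytotoxic lymphocytes whose substrates are little known, rose. *Ctsw* was 1.85, 2.63, 1.38, and 1.84 FPKM in WT and 7.13, 7.67, 6.13, and 5.91 FPKM in HDAC1cKO-HDAC2HET samples, with no overlap. Its log2 fold change was 1.78 ± 0.18 (SE, n = 4 per group, adjusted p = 0.00012 by limma). The call was lost when both experiments shared 1 estimate of the spread (adjusted p = 0.0843). The *Ctsw* locus (chr19:5465043-5468507) overlaps *Fibp* on the opposite strand, that of *Ctsc* (chr7:88278085-88310888) overlaps *Gm26522*, and it is not stated whether the counting used strand.

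Of the 2 granule membrane genes, *Nkg7* rose and *Lamp1* did not pass the test. NKG7 is a membrane protein of cytotoxic granules, and its mRNA was 39.9, 48.1, 29.4, and 35.9 FPKM in WT and 133, 158, 166, and 160.0 FPKM in HDAC1cKO-HDAC2HET samples. The gene is short, at chr7:43437073-43438249. The lowest mutant library lay well above the highest WT library, and the log2 fold change was 2.02 ± 0.15 (SE, n = 4 per group, adjusted p = 2.05e-05 by limma). All 4 WT libraries listed the gene by name and all 4 mutant libraries held it as a matched locus, so the way of listing cannot be told apart from genotype for this gene. Among 3682 genes with both kinds of row in the WT group, the matched value exceeded the listed one by 2-fold or more in 2.80% and was lower by as much in 0.788%. For *Nkg7* itself, WT replicates 1 and 2 of the second experiment, listed by name, gave 19.6 and 28.1 FPKM. WT replicate 3 there, matched by position, gave 151 FPKM. The part of the listing in the *Nkg7* change was not tested. LAMP1, the general lysosome membrane protein that appears on the surface upon degranulation, gave 71.9, 76.4, 77.0, and 77.3 FPKM in WT and 74.7, 78.0, 78.0, and 80.2 FPKM in HDAC1cKO-HDAC2HET samples. The gene (chr8:13159161-13175338) overlaps *Grtp1* on the opposite strand. The groups overlapped, and the 95% interval of the fold was 0.973 to 1.09 (adjusted p = 0.377, limma).

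The protective serpin rose as well. *Serpinb9*, which encodes the granzyme B inhibitor, was 10.3, 7.85, 9.23, and 7.56 FPKM in WT and 19.6, 23.4, 22.7, and 21.5 FPKM in HDAC1cKO-HDAC2HET samples. The groups did not overlap, also between the listed libraries alone, and the log2 fold change was 1.32 ± 0.11 (SE, n = 4 per group, adjusted p = 3.36e-05 by limma). In each group 3 libraries listed the gene by name and 1 held it as a matched locus. The gene lies at chr13:33003250-33017957 beside close paralogs, whose shared reads can affect its value.

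The 3 exocytosis genes barely moved. MUNC13-4, which primes granules for fusion, is encoded by *Unc13d*, with 36.8, 36.0, 35.9, and 36.3 FPKM in WT and 34.2, 33.2, 34.1, and 34.2 FPKM in HDAC1cKO-HDAC2HET samples. The replicates were so close that a log2 fold change of -0.10 ± 0.02 (SE, n = 4 per group) passed the test (adjusted p = 0.00836, limma), a drop to 0.936 of WT. This call was lost with 1 spread for both experiments (adjusted p = 0.310). *Rab27a*, which encodes the GTPase that docks granules, was 16.8 to 18.9 FPKM in WT and 17.8 to 19.0 FPKM in HDAC1cKO-HDAC2HET samples, with a 95% interval of the fold of 0.959 to 1.10 (adjusted p = 0.473, limma). *Stx11*, which encodes syntaxin-11, was 24.3 to 29.1 FPKM in WT and 25.9 to 28.4 FPKM in HDAC1cKO-HDAC2HET samples, with an interval of 0.927 to 1.13 (adjusted p = 0.701, limma). The 3 genes lie at chr11:116062095-116077961 (*Unc13d*), chr9:73044854-73097629 (*Rab27a*), and chr10:12938209-12964298 (*Stx11*). For *Rab27a* and *Stx11* the ranges of the 2 groups overlapped.

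The order of the levels changed with these moves. In WT cells it ran from *Srgn* and *Lamp1* through *Nkg7*, *Ctsc*, *Unc13d*, *Stx11*, *Rab27a*, *Serpinb9*, and *Ctsw* to *Prf1*, and the ranges of *Nkg7* and *Ctsc*, and of *Ctsc* and *Unc13d*, overlapped. In HDAC1cKO-HDAC2HET cells *Nkg7* stood second, and *Serpinb9*, *Prf1*, and *Rab27a* followed *Stx11* with ranges that overlapped between neighbours. *Ctsw* was then the lowest of the 10.

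In the second experiment, which kept both *Hdac2* alleles and added restimulation, 0 of the 10 genes passed the adjusted test as higher and 0 as lower (limma). Across all genes only 0.0285% were called higher and 0.0642% lower, and at 2-fold 0.0143% and 0.0642%, although 1995 of 14026 genes had an unadjusted p under 0.05. The adjusted calls were 4 genes higher and 9 lower, and with median ratio scaling 7 and 10. Of the 10 genes, 5 had an unadjusted p under 0.05: *Prf1*, *Nkg7*, *Serpinb9*, *Unc13d*, and *Stx11*. An exact permutation test of 3 against 3 samples cannot give a p under 0.1. The median log2 fold change of the 10 was 0.36, and that of all genes was -0.03.

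*Prf1* was 0.352, 0.203, and 0.349 FPKM in WT and 2.17, 1.48, and 2.68 FPKM in HDAC1cKO samples. The lowest HDAC1cKO library exceeded the highest WT library, and the log2 fold change was 2.45 ± 0.30 (SE, n = 3 per group, adjusted p = 0.0768 by limma). The test was passed when only protein-coding genes were adjusted for (adjusted p = 0.0326) and with 1 spread for both experiments (adjusted p = 0.000121). The latter p-value rests on the spread of both experiments together and not of this one alone. In the other 19 of 21 alternatives the test was not passed. Leaving out 1 sample gave an adjusted p of 0.0908 to 0.296. The WT values rested on 14 to 25 fragments per library. Here WT replicate 3 was in the range of the other WT libraries.

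*Nkg7* was 19.6, 28.1, and 151 FPKM in WT and 273, 179, and 202 FPKM in HDAC1cKO samples, with a log2 fold change of 2.29 ± 0.76 (SE, n = 3 per group, adjusted p = 0.286 by limma). WT replicate 3 was the high WT library, and it alone among the 3 held the gene as a matched locus, as did all 3 HDAC1cKO libraries. With 1 spread for both experiments the adjusted p was 0.0228, although the WT SD was 73.7 FPKM here and 7.78 FPKM in the first experiment. Without WT replicate 3 the log2 fold change was 3.19 ± 0.24 (adjusted p = 0.0178, limma, 2 against 3 samples). *Ctsw* showed the same split, with 0.0909, 0.294, and 6.37 FPKM in WT and 4.05, 5.32, and 3.92 FPKM in HDAC1cKO samples. The 2 low WT values rested on 4 and 13 fragments and were listed by name, while WT replicate 3 lay above every HDAC1cKO library. The log2 fold change was 2.51 ± 1.27 (SE, n = 3 per group, adjusted p = 0.425 by limma), and without WT replicate 3 it was 4.03 ± 0.38 (adjusted p = 0.0331). In this WT group the matched value exceeded the listed value by 2-fold or more in 6.23% of 1799 genes with both kinds of row. Without WT replicate 3 the way of listing cannot be told apart from genotype for either gene. The part of WT replicate 3 and of the listing in these values was not tested further.

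The cargo core and the activating protease did not pass the test after restimulation. *Srgn* was 496, 292, and 303 FPKM in WT and 336, 351, and 344 FPKM in HDAC1cKO samples, so that WT replicate 1 was the highest and the other WT libraries the lowest. The 95% interval of the fold, 0.683 to 1.39, was wide (adjusted p = 0.957, limma). *Ctsc* was 38.3, 35.4, and 32.5 FPKM in WT and 34.4, 35.1, and 37.7 FPKM in HDAC1cKO samples, with an interval of 0.874 to 1.17 (adjusted p = 0.959, limma). *Lamp1* was 64.6, 76.0, and 86.5 FPKM in WT and 90.1, 83.0, and 80.1 FPKM in HDAC1cKO samples, with an interval of 0.915 to 1.38 (adjusted p = 0.576, limma). *Serpinb9* was 30.0, 17.2, and 32.7 FPKM in WT and 33.0, 45.8, and 48.8 FPKM in HDAC1cKO samples. The groups only just separated, and the log2 fold change was 0.70 ± 0.28 (SE, n = 3 per group, adjusted p = 0.346 by limma).

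Among the exocytosis genes, *Unc13d* and *Stx11* had fold changes of opposite sign, and neither passed the adjusted test. *Unc13d* was 49.6, 38.9, and 46.0 FPKM in WT and 74.2, 61.0, and 62.8 FPKM in HDAC1cKO samples, with a log2 fold change of 0.56 ± 0.12 (SE, n = 3 per group, adjusted p = 0.189 by limma). *Stx11* was 99.1, 71.9, and 51.3 FPKM in WT and 40.4, 35.4, and 43.9 FPKM in HDAC1cKO samples, with a log2 fold change of -0.85 ± 0.24 (SE, n = 3 per group, adjusted p = 0.244 by limma). Neither gene's groups overlapped. With 1 spread for both experiments *Unc13d* was called higher (adjusted p = 0.00252, limma) and *Stx11* lower (adjusted p = 0.0121). The SD of *Unc13d* was 5.42 and 7.15 FPKM in these WT and HDAC1cKO samples, and 0.394 and 0.496 FPKM in the first experiment. For *Stx11* the SD was 24.0 and 4.29 FPKM here, and 2.02 and 1.27 FPKM in the first. The shared-spread p-values thus do not measure the spread of the second experiment alone. *Rab27a* was 11.8, 18.9, and 14.9 FPKM in WT and 17.2, 14.03, and 14.4 FPKM in HDAC1cKO samples, with an interval of the fold of 0.737 to 1.40 (adjusted p = 0.970, limma).

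**Figure D2:**
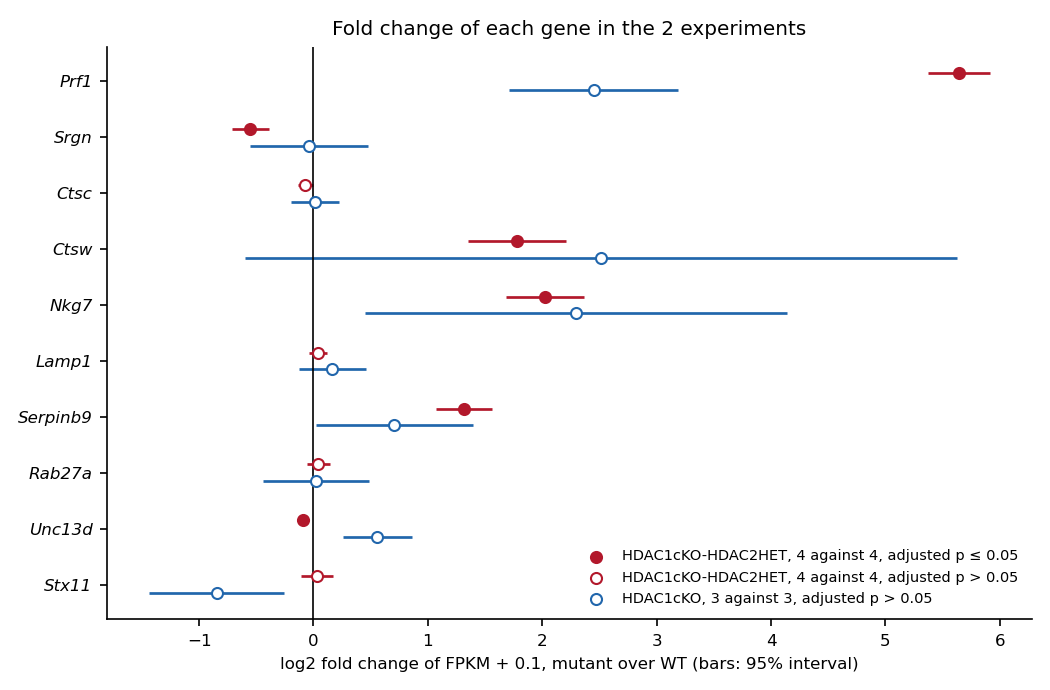
Log2 fold change of FPKM plus 0.1, mutant over WT, for each gene in the first (red, 4 against 4) and the second experiment (blue, 3 against 3). Points are limma estimates, filled at an adjusted p of at most 0.05, and bars are 95% intervals; Prf1 stands at 5.64 and 2.45, and Unc13d and Stx11 lie on opposite sides of 0 in the second experiment.

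The fold change itself differed between the 2 experiments for 3 of the 10 genes, against 15.7% of 12367 genes tested for it (limma contrast over 4 group means). That of *Prf1* was larger in the first experiment by 3.19 ± 0.29 on the log2 scale (adjusted p = 6.18e-05). That of *Unc13d* was lower in the first experiment by a difference of -0.65 ± 0.11 (adjusted p = 0.00242). *Stx11* differed by 0.88 ± 0.23 (adjusted p = 0.026), with log2 fold changes of 0.03 in the first and -0.85 in the second experiment. The *Stx11* call was lost with separate spreads for the experiments (adjusted p = 0.0786), with a sex covariate (adjusted p = 0.0998), and without WT replicate 2 of the first (0.0523) or HDAC1cKO replicate 2 of the second experiment (0.0576). Without WT replicate 3 of the second experiment 5 of the 10 differed, *Nkg7* (log2 difference -1.16, adjusted p = 0.0195) and *Ctsw* (-2.26, adjusted p = 0.00337) among them. The remaining WT libraries there listed both genes by name, and every HDAC1cKO library held them as matched loci. For these 2 genes the way of listing then cannot be told apart from genotype. For *Srgn* the difference was -0.52 ± 0.21 (adjusted p = 0.120). Leaving out 1 sample gave -0.76 to -0.38 (adjusted p = 0.000654 to 0.234), the lowest p without WT replicate 1 of the second experiment. For *Serpinb9* the difference was 0.61 ± 0.29 (adjusted p = 0.183). Leaving out 1 sample gave 0.44 to 0.90 (adjusted p = 0.0161 to 0.371), the lowest p without WT replicate 2 of the second experiment. Over all alternatives the *Serpinb9* difference went down to 0.04. Except where separate spreads are named, these p-values used 1 spread for both experiments. They thus do not measure the spread of the second experiment alone. The experiments differ in *Hdac2* alleles, restimulation, and preparation at once, so these cannot be told apart.

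A further 45 genes of the pathway were examined by role, of which 34 could be tested in the first experiment and 32 in the second. *Gzma* reached the filter on low values only through the HDAC1cKO-HDAC2HET group and is left out of the counts. In HDAC1cKO-HDAC2HET cells 19 of the other 33 (57.6%) were higher and 6 (18.2%) lower at an adjusted p of at most 0.05, against 24.7% and 28.3% of the 13959 genes whose mean FPKM reached 0.1 in both groups. By at least 2-fold 5 (15.2%) were higher and 1 (3.03%) lower, against 4.91% and 4.89% of those genes. Their median log2 fold change was 0.27, against -0.04 over those genes. In HDAC1cKO cells 0 of 32 passed in either direction, against 0.0285% and 0.0642% of all genes, with 12 at an unadjusted p under 0.05, and the median was 0.10, against -0.03 over all genes.

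Of the granzymes, *Gzmb* was higher and *Gzmm* did not pass the test. *Gzmb*, which encodes granzyme B, was 20.6, 15.6, 30.1, and 20.7 FPKM in WT and 485, 872, 561, and 665 FPKM in HDAC1cKO-HDAC2HET samples, a log2 fold change of 4.89 ± 0.24 (SE, n = 4 per group, adjusted p = 3.95e-06 by limma). Of the WT libraries only replicate 3 held it as a matched locus, as did every HDAC1cKO-HDAC2HET library. In the second experiment *Gzmb* was 63.9, 16.7, and 23.3 FPKM in WT and 203, 172, and 234 FPKM in HDAC1cKO samples (adjusted p = 0.148, limma). Without WT replicate 1 the adjusted p was 0.0123. That replicate alone among the WT libraries there was matched by position, as was every HDAC1cKO library. Without it the way of listing cannot be told apart from genotype. *Gzma* had means of 0.0509 FPKM in WT and 0.227 FPKM in HDAC1cKO-HDAC2HET samples, far below *Gzmb*. Within a library *Gzmb* exceeded *Prf1* by 52.0 to 105 times in WT and 27.5 to 40.8 times in HDAC1cKO-HDAC2HET samples, and by 66.9 to 181.6 and 87.3 to 116 times in WT and HDAC1cKO samples of the second experiment. The granzyme genes are close paralogs, and reads shared between them can affect these values.

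Genes that process granule proteins or inhibit that step split, with 2 of 4 higher and 2 lower, against 24.7% and 28.3% of genes. *Ctsl*, which encodes cathepsin L, rose from 2.27 ± 0.33 to 9.40 ± 0.347 FPKM (SD, n = 4 per group, adjusted p = 4.36e-06 by limma). *Cst7*, which encodes cystatin F, an inhibitor of cathepsin C, fell from 61.2 ± 8.01 to 41.6 ± 7.86 FPKM (SD, n = 4 per group, adjusted p = 0.0165 by limma). *Ctss* fell and *Ctsb* rose, each by less than 2-fold. Of the genes for sorting by mannose 6-phosphate, the route by which granzymes reach the granule, *Gnptab* was higher, *M6pr* lower, and *Igf2r* did not pass the test.

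All 3 further serpins tested were higher in HDAC1cKO-HDAC2HET cells, against 24.7% of genes. *Serpina3g* rose from 19.8 ± 3.22 to 97.3 ± 8.52 FPKM and *Serpinb6b* from 7.96 ± 2.77 to 32.8 ± 2.42 FPKM (SD, n = 4 per group, adjusted p = 5.10e-06 and 0.000173 by limma). *Serpinb6a* rose by less than 2-fold. Both serpin families hold close paralogs, so that shared reads make these values uncertain.

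Of the 14 docking, priming, and fusion genes tested, 7 were higher, against 24.7% of genes, and 3 were lower, a share near the 28.3% of genes. The only change of 2-fold or more among them was a fall. *Stxbp2*, which encodes MUNC18-2, the partner of syntaxin-11, rose from 34.0 ± 0.456 to 51.1 ± 0.558 FPKM (SD, n = 4 per group, adjusted p = 1.48e-06 by limma). *Sytl1*, which encodes a synaptotagmin-like protein that binds RAB27A, fell from 13.8 ± 0.781 to 5.16 ± 0.419 FPKM (adjusted p = 4.36e-06 by limma), and it was named after its value was seen. Of 7 genes for granule biogenesis and movement, 5 were higher and 0 lower, against 24.7% and 28.3% of genes. *Cd63*, which encodes a tetraspanin of the granule membrane, rose from 0.251 ± 0.142 to 8.74 ± 0.854 FPKM (SD, n = 4 per group, adjusted p = 5.97e-06 by limma), and *Ap3b1*, *Ap3d1*, *Lamp2*, and *Kif5b* made up the other calls, all under 2-fold.

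**Figure D3:**
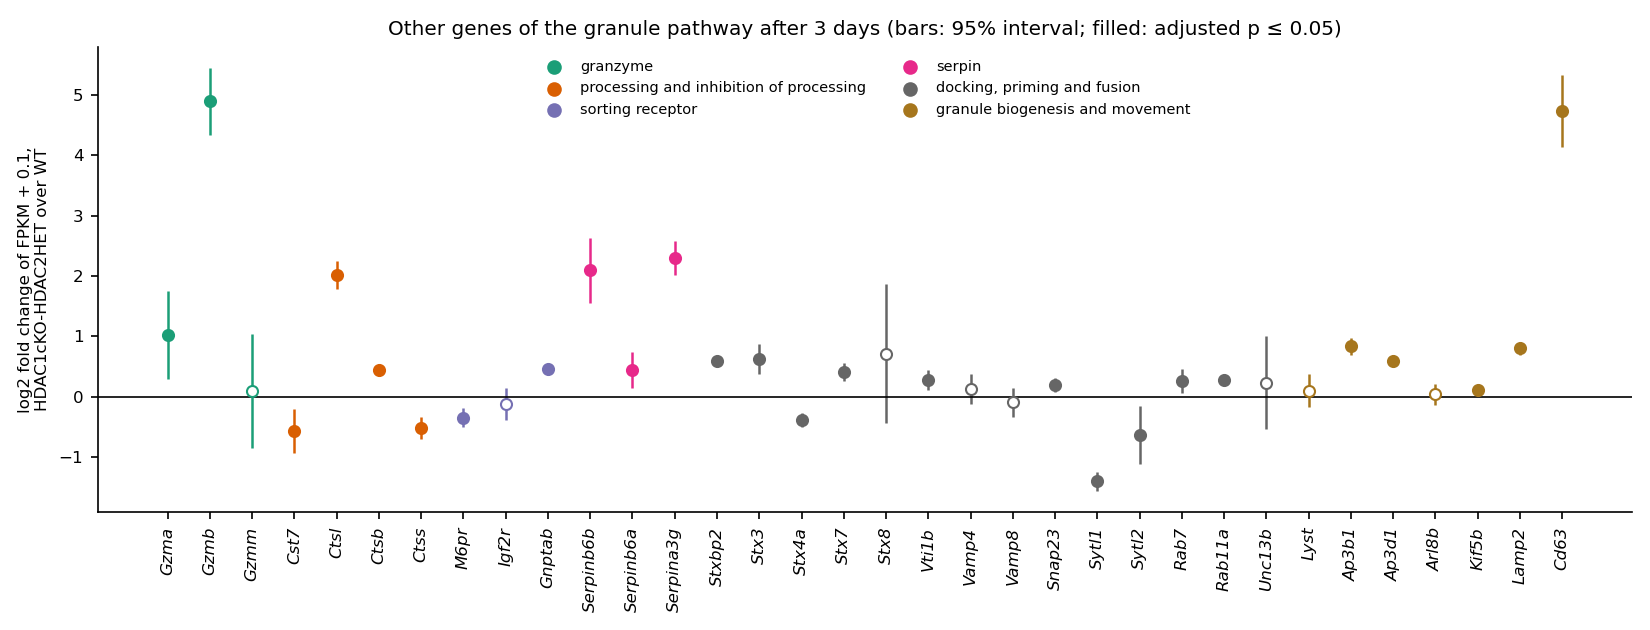
Log2 fold change of FPKM plus 0.1, HDAC1cKO-HDAC2HET over WT after 3 days, for the 34 other pathway genes tested, Gzma included, coloured by role. Bars are 95% intervals and filled points have an adjusted p of at most 0.05; Gzmb (4.89) and Cd63 (4.73) stand highest and Sytl1 (-1.40) lowest.

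The 5 genes whose profile over the 14 samples was nearest that of *Prf1*, by the root mean square difference of centred log2 values among 12367 genes, were *Madcam1* (0.52), *Rpph1* (0.59), *Cd63* (0.62), *Gzmb* (0.71), and *Erg* (0.78). The means of *Madcam1* were 0.211 FPKM in WT and 7.68 FPKM in HDAC1cKO-HDAC2HET samples and 0.105 and 0.709 FPKM in WT and HDAC1cKO samples of the second experiment. Those of *Cd63* were 0.251 and 8.74 FPKM and then 0.412 and 1.16 FPKM. All 5 genes, as *Prf1*, had their highest mean in HDAC1cKO-HDAC2HET cells. They were chosen for their nearness to *Prf1* over these same samples, so this likeness follows from the choice and is no separate result. *Rpph1* is annotated as a ribozyme and the others as protein-coding genes. Whether the 5 share a regulation with *Prf1* was not tested.

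**Figure D4:**
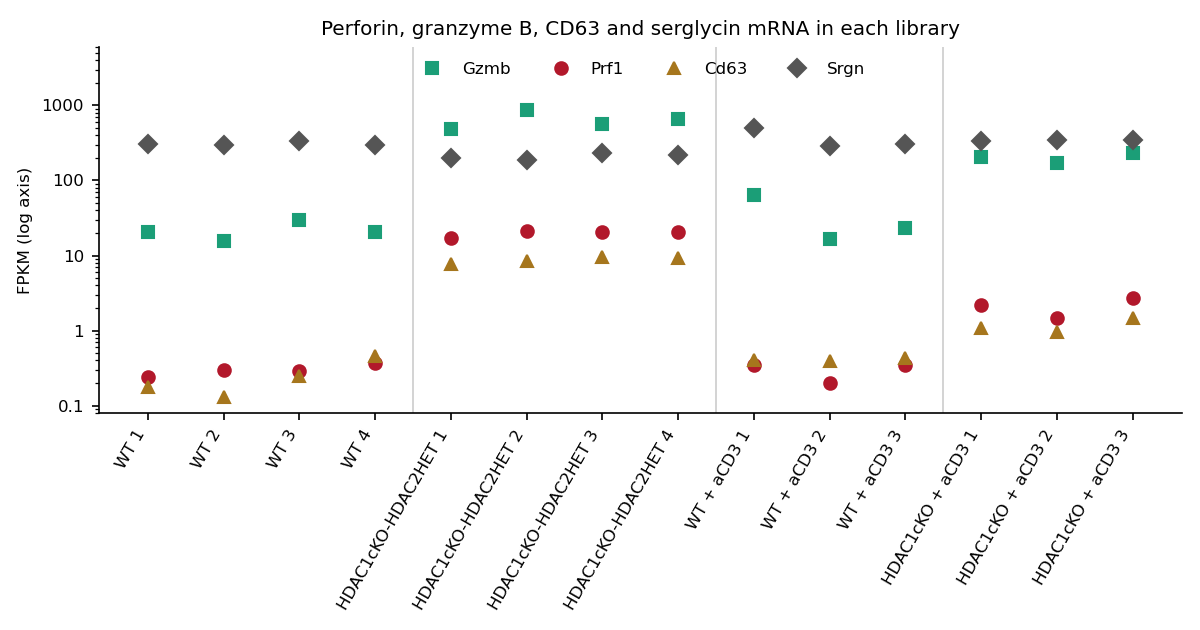
FPKM on a log axis of Gzmb, Prf1, Cd63, and Srgn in each of the 14 libraries, with vertical lines between groups and aCD3 marking restimulation. Gzmb lies below Srgn in every WT library and above it in all 4 HDAC1cKO-HDAC2HET libraries, and Prf1 and Cd63 lie lowest in every library.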

How the data were processed

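RNA-Seq of sorted, activated CD4+ T cells was measured in 14 samples, grouped by the labels. Libraries were made with a stranded TruSeq kit. The authors mapped reads to mm10 and deposited FPKM values, with confidence bounds, made per library with TopHat and Cufflinks per the file columns and methods, while the labels also name STAR 2.5.2b and Subread 1.5.1. No counts were used. Unnamed assembled loci were matched to GENCODE genes of GRCm38 at a shared span of at least 0.8. Log2(FPKM + 0.1) was fitted per experiment with limma 3.58.1 in R 4.3.3 (intensity trend, Benjamini-Hochberg adjustment over genes whose mean FPKM reached 0.1), and calls used an adjusted p of at most 0.05. The difference of fold changes was a contrast over all samples. The fit was tested on simulated data. Fragments were read from the confidence bounds, taken as 2 standard errors of a count, and 83.2% to 90.0% of the low values of a library came out whole within 0.05. The 10 genes, the pathway list, and the tests were chosen with earlier results of these data known. Named beside the 10 were, per experiment, the 5 called pathway genes with the largest change, *Cst7*, *Gzmb*, and *Stxbp2*, and the 5 profiles nearest *Prf1*. Other pathway genes named were chosen after their values were seen. Replicate numbers did not pair samples (correlations of deviations -0.01 to 0.04). Nothing in the sources says that samples of the second experiment came from separate mice, and p-values measure the spread between these samples. Alternatives changed the pseudocount, filter, scaling, variance model, weights, block, sex, matching, gene types, spread, and each sample in turn.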

Additional observations from a re-analysis of the deposited data

Results flagged for a closer look

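Among 34 sets of 4 replicates examined, 3 held a library whose gap to the nearest of the others was large against the range of the set (Dixon's test), and chance alone gives this in about 1 in 20 sets. *Srgn* was 331 FPKM in WT replicate 3 of the first experiment, and 298 to 303 FPKM in the other WT samples. *Lamp1* was 71.9 FPKM in WT replicate 1, and 76.4 to 77.3 FPKM in the others. *Unc13d* was 33.2 FPKM in HDAC1cKO-HDAC2HET replicate 2, and 34.1 to 34.2 FPKM in the others.

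The log2 fold change in the first experiment minus that in the second passed the test of the difference (limma, adjusted over 12367 genes) for 3 of the 10 genes and for 11 of 30 other pathway genes, against 15.7% of all genes. It was 3.19 for *Prf1* (adjusted p = 6.18e-05), -0.65 for *Unc13d* (0.00242), and 0.88 for *Stx11* (0.026). Among the other pathway genes it was 3.45 for *Cd63* (adjusted p = 0.000136), 2.11 for *Gzmb* (0.0211), 1.98 for *Ctsl* (4.57e-05), 1.52 for *Serpinb6b* (0.00963), 0.79 for *Lyst* (0.0331), 0.57 for *Lamp2* (0.00319), 0.39 for *Ap3d1* (0.00197), 0.39 for *Gnptab* (0.0126), and 0.34 for *Stxbp2* (0.0323). It was -0.69 for *Ctss* (adjusted p = 0.00806) and -0.60 for *Stx4a* (0.00601). All these p-values rest on 1 spread for both experiments and do not measure the spread of the second experiment alone. With separate spreads 2 of the 10 genes passed, and *Stx11* did not (adjusted p = 0.0786). For the other pathway genes the difference with separate spreads is not given here. *Ctsl* means in the second experiment were 3.93 FPKM in WT and 3.99 FPKM in HDAC1cKO samples. Allele number, restimulation, and sex of the libraries differ between the experiments and cannot be told apart here.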

How the results depend on the processing

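In HDAC1cKO-HDAC2HET cells 4 of the 10 genes were called higher in each of 22 alternatives except with both experiments in 1 fit, which gave 3. The log2 fold change of *Prf1* ranged from 3.99 to 6.01. With both experiments in 1 fit, 1 of the 10 was lower there, and in the second experiment 3 were higher and 1 lower, with 5 pathway genes higher and 3 lower. That fit shares 1 spread, so its calls in the second experiment do not rest on that experiment's spread alone. Rows listed by name left none of the 10 and 3 pathway genes in the first experiment, 2 higher and 0 lower. In the second experiment 1 of the 10 was higher among protein-coding genes, and 1 pathway gene with array weights. Leaving out 1 sample gave 0 to 2 of the 10 higher there, 2 without WT replicate 3, and 0 to 1 pathway gene, *Gzmb* without WT replicate 1. For the genes called without these replicates, the way of listing cannot be told apart from genotype. The number of genes whose fold change differed between the experiments ranged from 2 to 5 of the 10 when 1 sample was left out, 5 without WT replicate 3 of the second experiment, and was 2 with separate spreads for the experiments, an alternative chosen after seeing the data. No called result changed direction under the alternatives run. A sex covariate could not be fitted in the first experiment, whose libraries are all female. Wherever the covariate was used, WT replicate 3 of the second experiment, which held both kinds of transcript, was entered as female.

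The replicate block changed no count among the 10 in either experiment, with 4 higher and 2 lower in the first and 0 in the second, and the *Stx11* difference was 0.88 (adjusted p = 0.0647, limma). Over all genes the block gave 0 higher and 5 lower in the second experiment, against 4 and 9. Those counts were 7 and 10 with median ratio scaling, 13 and 14 at a mean FPKM of at least 1, 16 and 15 with array weights, 29 and 47 with a sex covariate, 642 and 710 in 1 fit, and 25 and 32 without WT replicate 3. In the first experiment 846 genes were higher and 844 lower by at least 2-fold, and 416 and 326 with a pseudocount of 1, 530 and 502 at a mean FPKM of at least 1, and 225 and 192 by name. FPKM hold no counts, so values under about 1 FPKM, such as *Prf1* in WT, rest on few fragments.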
